A study of Mus musculus with 17 samples.

Results

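Mouse neural retinal progenitor cells (mNRPCs), grown from the retina of adult C57BL/6 mice, were sequenced after 1, 3, 5 and 7 days in medium with bFGF alone (B) or with bFGF and CHIR99021 (BC), and the 2 treatments were compared within each day. These are 8 of the 17 libraries of the series, 4 of B and 4 of BC. The other libraries are 1 of day 0 and, on the same 4 days, the basic medium without either factor (BM) and BM with CHIR99021 (C). BM is DMEM/F12 with N2, B27 and beta-mercaptoethanol, and all 8 libraries compared carry bFGF. The paper describes isolating and passaging these cells in medium with both bFGF and CHIR99021. A difference between BC and B may therefore hold a loss of CHIR99021 in B. Each treatment and day is 1 library of cultured cells of 1 line, so the 4 days stand in for replicates and no single day has a replicate check. The p-values below therefore measure how evenly BC differed from B over the 4 days, which may hold both technical spread and real differences between days.

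bFGF binds FGF receptors and activates, among others, the ERK kinase cascade. CHIR99021 inhibits the kinase GSK-3, which marks beta-catenin for breakdown. When GSK-3 is inhibited, beta-catenin builds up and, with TCF/LEF factors, switches on Wnt target genes such as Axin2, which feeds back on the pathway. GSK-3 also phosphorylates many other proteins, among them glycogen synthase and the MYC protein.

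Expression was measured as an expected count of reads, where a read that fits several genes is divided among them, and as FPKM, the count scaled to transcript length and depth. The total expected count ran from 17654133 to 18936673 in B and from 17571973 to 18874919 in BC, and no pair of libraries held identical counts. The day 3 libraries, at 18216696 in B and 18151269 in BC, were within these ranges. Of the progenitor markers, Pax6, Six3, Sox2 and Nes were expressed in all 8 libraries, whereas Rax stayed at or below 0.03 FPKM, and 7 of the 19 genes of that list stayed under 1 FPKM in all 8.

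A limited set of genes differed between BC and B over the 4 days. In edgeR's quasi-likelihood test with the day as a term, 250 genes were higher and 299 lower in BC than in B of 10955 genes tested (mean FPKM 1 or more), which is 2.28% and 2.73% of the genes tested (Benjamini-Hochberg adjusted p under 0.05). The changes were mostly small. The median size was 1.52-fold among the genes that rose and 1.46-fold among those that fell, and 46 and 25 genes reached 2-fold. The sign was the same in all 4 pairs in 218 of the 250 genes that rose and in 295 of the 299 that fell. The test itself favours genes of an even sign over the 4 pairs. The rises were smallest on day 1, with a median paired difference of 0.19 against 0.74 on day 3.
The number of calls depended on the days in the fit. It was 939 without the day 1 pair, 196 without day 3, 45 without day 5 and 8 without day 7. All 549 genes kept their direction in each of these fits. They were called on the same pairs, so this is favoured by the choice and is no separate check. Of the 549, 7 stayed past the threshold whichever pair was left out, namely Postn, C1s1, Cybrd1 and Dlg2, which rose, and Jph2, Itga3 and Deptor, which fell. Of the 66 called genes that the rules of naming picked, 62 lost the threshold without at least 1 pair, 61 of them without the day 7 pair.

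Postn (Entrez gene 50706) encodes periostin, a secreted matrix protein, and rose most. Its FPKM was 0.05, 0.21, 1.22 and 0.66 in B on days 1, 3, 5 and 7, and 0.07, 6.61, 19.27 and 9.54 in BC. The libraries were both near 0 on day 1, and from day 3 every BC library was far above every B library. The fitted log2 fold change was 4.09 (SE 0.24, adjusted p = 2.95e-05, edgeR).
Of the other large rises, Islr, Wisp2, Cthrc1, Sparcl1 and Sema6d encode secreted or membrane proteins. Islr, a secreted marker of mesenchymal cells, had an FPKM of 0.26, 1.39, 0.46 and 0.29 in B and of 0.33, 8.80, 1.44 and 1.14 in BC, with a log2 fold change of 1.97 (SE 0.30, adjusted p = 0.00856). The values of the B and BC groups overlapped across days, since BC on day 1 was below B on days 3 and 5. Both treatments were highest on day 3. Wisp2, a secreted member of the CCN family, had a log2 fold change of 1.83, the semaphorin Sema6d of 1.82 and Cthrc1, a secreted protein of the collagen triple helix family, of 1.78. Cyp26a1, the enzyme that degrades retinoic acid, rose by 1.61 on the log2 scale, from an FPKM of 1.07 in B to 4.41 in BC on day 3 and from 0.44 to 0.61 on day 1. Enpep, a membrane aminopeptidase that cleaves angiotensin, rose by 1.71 and Nrep by 1.71.

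The steadiest genes were those whose BC library was higher or lower than B in 4 of 4 pairs and by at least 0.5 on the log2(FPKM + 1) scale in each of them. In 4 of 4 pairs without a size limit, 1689 genes (15.4%) were higher and 1562 (14.3%) lower. With the limit 5 genes (0.0456%) were higher and 16 (0.146%) lower, and all 21 also passed the edgeR threshold. The balance of higher and lower genes rested on the scale, since 27 were higher and 32 lower on TMM-scaled counts. An exact sign-flip permutation test over 4 pairs cannot reach 0.05 for a single gene, so these counts are a description. The 5 rises were Saa3, Hopx, Dlg2, Prr16 and Orm3. Saa3 encodes an acute-phase serum amyloid protein and had an FPKM of 1.36, 1.75, 2.59 and 0.76 in B against 2.95, 6.46, 8.02 and 2.65 in BC, a mean paired difference of 1.14 ± 0.31 (SD, n = 4 pairs, log2(FPKM + 1)). Hopx, a homeodomain protein that binds no DNA and works with the serum response factor, had 1.75, 2.98, 2.25 and 2.27 in B and 3.28, 12.74, 6.64 and 7.25 in BC. The lowest BC value of Hopx was above the highest B value, and the mean paired difference was 1.25 ± 0.47 (SD, n = 4 pairs). Orm3, another acute-phase gene, had 0.42, 1.01, 1.57 and 3.33 in B and 1.03, 6.35, 3.24 and 5.75 in BC. Dlg2, a scaffold protein of synapses, had the most even rise of the 5 after Prr16, with paired differences of 0.59, 1.07, 0.89 and 0.76.
Among the steady falls, Jph2, which encodes junctophilin 2, a protein that ties the plasma membrane to the calcium stores of the endoplasmic reticulum, had an FPKM of 8.23, 17.39, 21.69 and 17.14 in B and of 3.87, 6.04, 7.26 and 6.10 in BC. All BC values were below all B values, and the log2 fold change was -1.42 (SE 0.10, adjusted p = 0.000127). The kinase gene Pim1, which encodes a serine/threonine kinase that promotes survival and growth, had 15.19, 83.71, 103.80 and 170.70 in B and 6.79, 21.34, 64.54 and 98.42 in BC. It climbed over time in both treatments and was lower in BC on every day, by 1.11 ± 0.56 (SD, n = 4 pairs). Siglecg, a sialic acid binding receptor, fell by 1.41 on the log2 scale, the cyclin family member Ccng2 by 0.78 and Deptor, an inhibitor of the kinase mTOR, by 0.81. Ak5, Fam71f1, Podnl1, Ubald1 and Tmem171 completed the 10 falls with the largest smallest difference, and the other 6 had mean paired differences between 0.74 and 0.91 in size. The difference was largest in size on day 3 in 17 of the 21 genes.

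**Figure D1:**
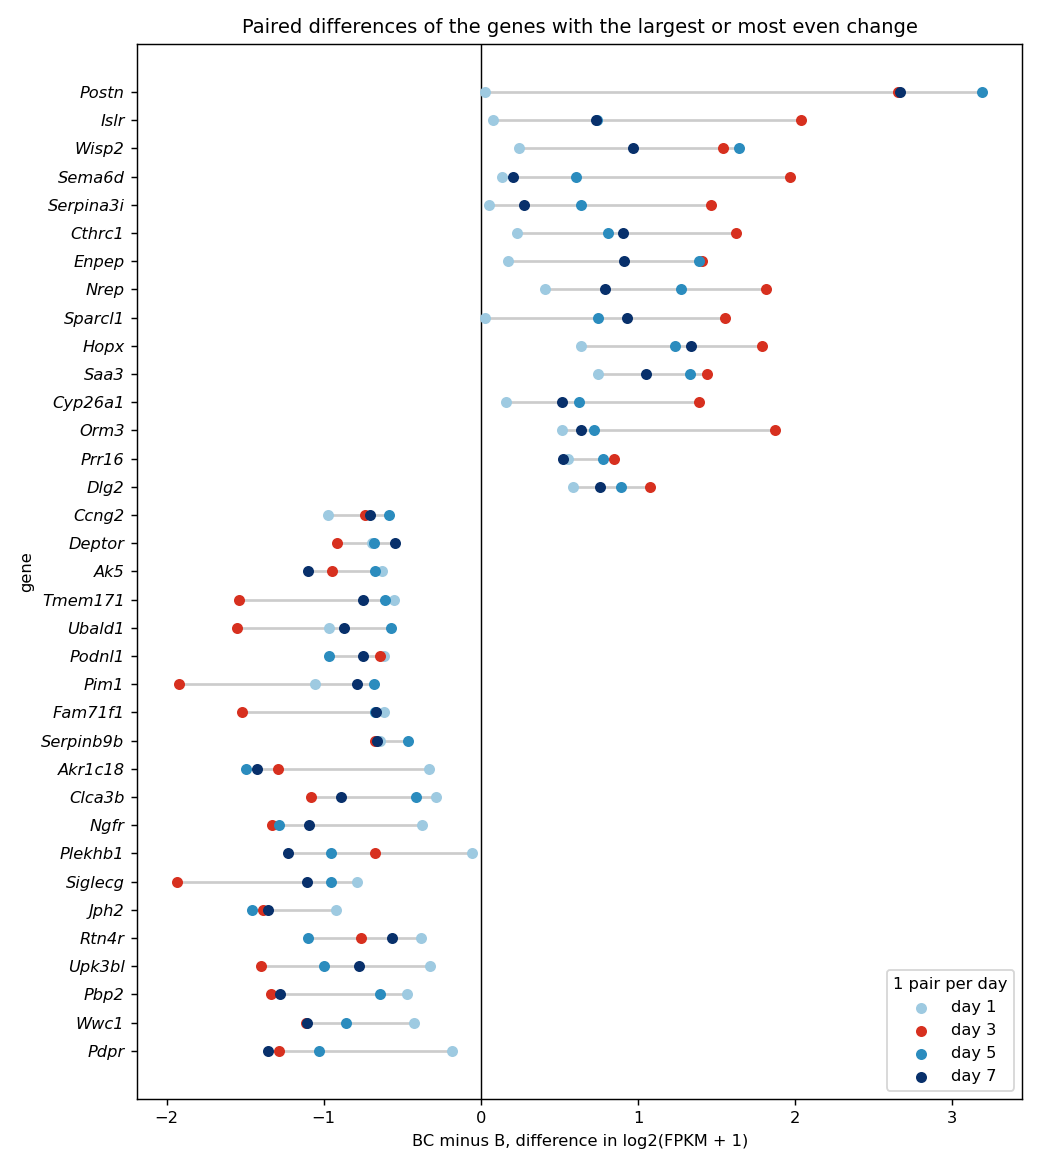
Each point is the difference between the BC and the B library of 1 day, in log2(FPKM + 1), for the genes with the largest fitted change and those with the most even change. Postn reached 3.19 on day 5 and was at 0.03 on day 1, while Dlg2 stayed between 0.59 and 1.07.

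The windows around the start sites of 4 steady genes are shown because they hold a match to 1 of the 4 motifs below. That of Axin2 is shown because it is the only gene called higher in the list of canonical Wnt targets used below. Of the 10 steady genes named here that have a window, the other 6 (Jph2, Dlg2, Siglecg, Pim1, Ccng2 and Fam71f1) hold no match. The windows are RefSeq sequences of GRCm38.p6, 250 bases before to 50 after the start, read 5′ to 3′ on the strand of the gene: Saa3 at chr7:46715627-46715926 on the minus strand, Orm3 at chr4:63355908-63356207 on the plus strand, Hopx at chr5:77115074-77115373 on the minus strand, Ubald1 at chr16:4879802-4880101 on the minus strand and Axin2 at chr11:108920099-108920398 on the plus strand. Hopx has a further start site in that table. Capitals mark matches on either strand to 4 motifs, which share no letters in these windows.
Saa3: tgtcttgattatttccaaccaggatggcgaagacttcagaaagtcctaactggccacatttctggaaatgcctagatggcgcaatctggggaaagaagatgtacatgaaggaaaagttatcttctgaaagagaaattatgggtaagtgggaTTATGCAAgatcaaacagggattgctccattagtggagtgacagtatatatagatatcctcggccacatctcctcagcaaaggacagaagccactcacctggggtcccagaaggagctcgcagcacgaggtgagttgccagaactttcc
Orm3: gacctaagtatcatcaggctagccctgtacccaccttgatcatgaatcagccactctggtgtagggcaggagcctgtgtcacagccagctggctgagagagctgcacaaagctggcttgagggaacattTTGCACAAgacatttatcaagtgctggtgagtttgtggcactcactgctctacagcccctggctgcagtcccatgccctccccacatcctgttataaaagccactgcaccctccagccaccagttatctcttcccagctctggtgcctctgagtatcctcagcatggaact
Hopx: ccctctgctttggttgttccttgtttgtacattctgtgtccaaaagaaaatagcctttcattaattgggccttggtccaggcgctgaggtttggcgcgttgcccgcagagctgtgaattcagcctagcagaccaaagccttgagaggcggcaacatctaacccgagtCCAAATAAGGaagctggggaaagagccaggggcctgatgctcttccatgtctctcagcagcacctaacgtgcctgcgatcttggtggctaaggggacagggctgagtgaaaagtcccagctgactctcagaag
Ubald1: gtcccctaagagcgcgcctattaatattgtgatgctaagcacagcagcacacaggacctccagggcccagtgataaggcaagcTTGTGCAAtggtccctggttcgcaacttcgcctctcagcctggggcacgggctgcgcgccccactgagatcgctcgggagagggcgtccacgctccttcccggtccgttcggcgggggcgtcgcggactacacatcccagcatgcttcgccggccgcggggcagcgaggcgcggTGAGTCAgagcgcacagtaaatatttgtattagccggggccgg
Axin2: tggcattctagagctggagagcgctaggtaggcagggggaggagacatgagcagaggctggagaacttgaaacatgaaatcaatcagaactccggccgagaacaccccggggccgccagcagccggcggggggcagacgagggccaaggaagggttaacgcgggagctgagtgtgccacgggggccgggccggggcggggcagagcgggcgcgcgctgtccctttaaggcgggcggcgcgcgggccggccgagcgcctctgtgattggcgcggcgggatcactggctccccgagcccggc
The motifs were TCF/LEF (CTTTGAA or CTTTGAT, found in 8.65% of the 32851 windows of all genes), AP-1 (TGACTCA or TGAGTCA, 5.2%), the serum response element (the CArG box, 1.63%) and C/EBP (TTACACAA, TTACATAA, TTACGCAA, TTACGTAA, TTGCACAA, TTGCATAA, TTGCGCAA or TTGCGTAA, 3.77%). The acute-phase genes Saa3 and Orm3 each held 1 C/EBP match, Hopx 1 serum response element, Ubald1 1 C/EBP and 1 AP-1 match and Axin2 none. Of the genes with the largest changes, a TCF/LEF match stood in the window of Serpina3i, which rose, and of Serpinb9b, which fell, and a C/EBP match in that of Islr, which rose, and of Akr1c18, which fell. Of the canonical Wnt genes searched, Sp5 held a TCF/LEF match, and Lef1 and Tcf7 each a serum response element. Sp5 and Lef1 were not tested, and Tcf7 did not pass. In all, 11 of the 32 genes searched held a match. The share of all genes with a match to any of the 4 motifs was not taken, and some genes have several windows, so this count is a description only. Only 192 of the 250 genes that rose (76.8%) and 228 of the 299 that fell (76.3%) had a window, which is too few for a share over the called genes.

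Axin2 was the only gene called higher in the list of canonical Wnt targets. Genes outside this list were not examined as Wnt targets. Of the 20 canonical Wnt target and feedback genes, 10 were tested, of which Axin2 rose, Myc fell and 8 did not pass the test. Over all genes tested, 2.28% rose and 2.73% fell. The median fitted log2 fold change of the 10 was -0.03, against 0.01 over all genes tested, and 5 of the 10 were above 0. Apcdd1 did not pass, with an FPKM of 17.16, 27.01, 19.12 and 15.52 in B and of 19.88, 79.16, 28.61 and 13.83 in BC. It was higher in BC on days 1, 3 and 5 and lower on day 7. Axin2 (Entrez gene 12006) had an FPKM of 3.98, 4.47, 1.98 and 1.31 in B and of 5.63, 9.51, 3.40 and 2.33 in BC, so each BC library was above the B library of its day (log2 fold change 0.80, SE 0.12, adjusted p = 0.00836). Notum, a secreted Wnt inhibitor, was at 2.22 in B and 5.31 in BC on day 7 but at 1.77 and 1.66 on day 1, and did not pass (log2 fold change 0.47, adjusted p = 0.18). Tcf7, a TCF/LEF factor, was at 0.18 (adjusted p = 0.303) and the ubiquitin ligase Znrf3 at 0.12 (adjusted p = 0.581). The cyclin gene Ccnd1 was lower in BC on every day, with 419.80 in B and 252.00 in BC on day 3, and did not pass either (log2 fold change -0.34, adjusted p = 0.108). Nkd1, Lef1, Sp5 and Rnf43 stayed at or below 0.05 FPKM in all 8 libraries and were not tested.
Myc, the gene of a transcription factor that drives growth, had an FPKM of 87.50, 48.46, 41.05 and 45.42 in B and of 52.93, 18.47, 31.64 and 37.19 in BC. It was lower in BC on each day and fell by 0.68 on the log2 scale (SE 0.16, adjusted p = 0.0318). Myc lost the threshold without any 1 of the 4 pairs, and Axin2 without the day 5 (adjusted p = 0.0541) or the day 7 pair (adjusted p = 0.0607).
None of the 19 tested genes of Wnt signal transduction passed, where 2.28% of all genes tested rose and 2.73% fell, so that a list of this size need not hold a call. In the Wnt5a/calcium pathway, Plcb1, a phospholipase that releases calcium through inositol phosphates, rose by 0.57 on the log2 scale (adjusted p = 0.0456), and the other 14 of 15 did not pass. Wnt5a itself had an FPKM of 14.69, 11.18, 4.02 and 1.93 in B and of 13.85, 21.41, 7.59 and 2.60 in BC (log2 fold change 0.54, adjusted p = 0.0709). It was higher in BC from day 3 and not on day 1. Of the 15 tested genes of glycogen metabolism, which GSK-3 was first known for, none passed.

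ERK targets and early response genes were lower in BC where they passed. In the list of ERK feedback and target genes, Dusp4, Dusp5 and Myc fell and 15 of 18 did not pass, where 2.73% of all genes tested fell. Dusp5, a phosphatase that acts on ERK in the nucleus, had 29.38, 31.64, 16.40 and 30.94 FPKM in B and 16.25, 7.16, 9.44 and 24.45 in BC, and fell by 0.99 (adjusted p = 0.0325). The cytoplasmic ERK phosphatase gene Dusp6 was at -0.04 (adjusted p = 0.842). Of 13 AP-1 and early response genes, Fosb, Klf4, Klf6 and Nr4a1 fell, all transcription factors induced within minutes of a stimulus, and 9 did not pass, beside the same 2.73% of all genes. Klf6 went from 48.46 in B to 25.13 in BC on day 3 and fell by 0.59 (adjusted p = 0.0117).
Among the progenitor markers, Pax6, the transcription factor of eye development, rose and Nes, which encodes the intermediate filament nestin, fell, and 10 of 12 did not pass. Over all genes tested, 2.28% rose and 2.73% fell. Pax6 had an FPKM of 20.63, 33.81, 25.06 and 10.71 in B and of 21.89, 82.35, 33.37 and 16.48 in BC (log2 fold change 0.60, adjusted p = 0.0483). Its call was lost without the day 3 (log2 fold change 0.37, adjusted p = 0.131), day 5 (adjusted p = 0.114) or day 7 pair (adjusted p = 0.199). Nes had 13.43, 13.97, 9.08 and 8.50 in B and 9.51, 6.20, 5.73 and 5.95 in BC, lower on each day, and fell by 0.71 (adjusted p = 0.0112).
Of the axon guidance genes, the semaphorin Sema3d and its co-receptor gene Nrp1 rose by 1.16 (adjusted p = 0.0117) and 0.98 (adjusted p = 0.0353), Sema3e fell by 0.58 (adjusted p = 0.0108) and 12 of 15 did not pass. In the BMP and TGF-beta list, Tgfbi rose and the BMP target Id1 fell, with 10 of 12 not past the threshold. In the hypoxia list Ankrd37, Ndrg1 and P4ha2 fell and 15 of 18 did not pass. The interleukin gene Il33 and the chemokine gene Cxcl12 fell among 11 chemokines and cytokines, and Ifit1 alone rose among 18 interferon-stimulated genes. Col11a1 rose among 14 matrix genes, the protease gene Mmp9 rose and its inhibitor Timp1 fell among 12 matrix proteases and inhibitors, and the lysosomal protease gene Ctsz rose among 21 lysosome genes. These counts are to be read beside the 2.28% of all genes tested that rose and the 2.73% that fell. A single call in a list of this size is no result about the list.
No gene passed in 11 of the 24 pathway lists, which with 2.28% of all genes called higher and 2.73% lower is no result about these lists. They included 22 G2/M genes, 20 G1/S genes, 21 glycolysis genes, 16 chaperones of the endoplasmic reticulum, 22 genes of cholesterol and fatty acid synthesis and 20 ribosomal protein genes. All 22 G2/M genes had a fitted change below 0, with a median of -0.26, and all 20 ribosomal protein genes were above 0, with a median of 0.19. Over all genes, 5629 of the 10955 tested were above 0.

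**Figure D2:**
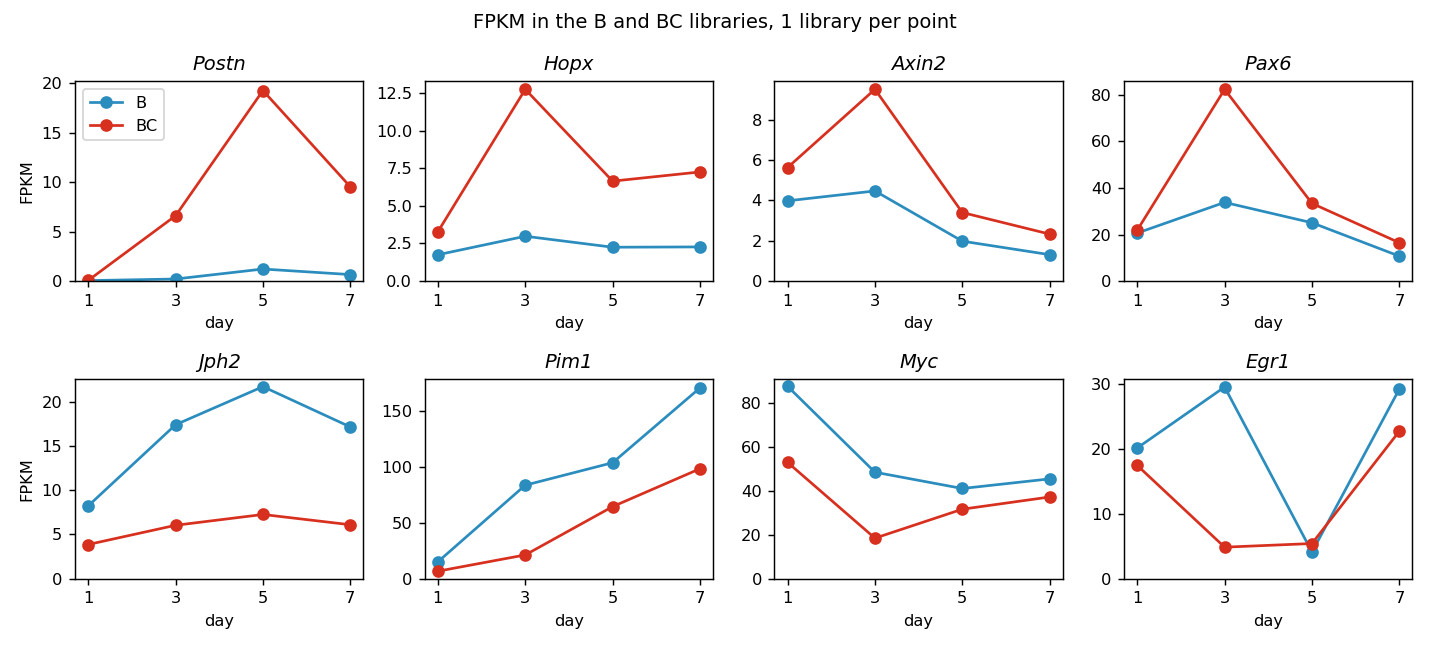
FPKM of 8 genes against the day of culture, 1 library per point, in B and BC. Hopx, Axin2 and Pax6 were highest in BC on day 3, Jph2 and Pim1 were lower in BC throughout, and Egr1 differed mainly on day 3.

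Gene Ontology terms in the files were counted after the calls were seen, with no test, and are to be read against the 2.28% and 2.73% of all genes tested. Of 90 genes of the proteinaceous extracellular matrix, 17 rose (18.9%) and 6 fell. Of 19 genes of collagen trimers 7 rose, among them Col11a1, Col16a1, Emilin1 and Pcolce. Of 429 genes of the endoplasmic reticulum membrane 23 rose (5.36%) and 3 fell. They included Sec61a1, the channel through which new secretory proteins enter the endoplasmic reticulum, with 0.35 on the log2 scale (adjusted p = 0.0279), Ssr2 with 0.32 (adjusted p = 0.0465) and Creb3l1, a membrane-bound transcription factor, with 1.01 (adjusted p = 0.00836). Of 200 genes of the cytoskeleton 4 rose and 17 fell (8.5%), and 6 of 36 stress fibre genes fell against 1 that rose. Tpm1, a tropomyosin, went from 774.10 FPKM in B to 416.20 in BC on day 3 and fell by 0.58 (adjusted p = 0.0119). The actin genes Actb and Actg1 fell by 0.51 (adjusted p = 0.0117) and 0.55 (adjusted p = 0.0104), and each was lower in BC in 4 of 4 pairs. Of 34 genes of integrin signalling, 5 fell and none rose, among them Itga3, a laminin receptor subunit, by 0.74 (adjusted p = 0.00836).

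Marker genes of other cell types were checked beside the matrix genes. Their calls are to be read beside the 2.28% of all genes tested that rose and the 2.73% that fell. Of 13 fibroblast and pericyte markers 5 were tested, of which Postn alone passed. Their summed FPKM ran from 72.7 to 179 in B and from 88.7 to 186 in BC. Within days, the sum went from 179 in B to 154 in BC on day 1, from 109 to 186 on day 3, from 117 to 179 on day 5 and from 72.7 to 88.7 on day 7, so it was higher in BC from day 3. Col3a1 alone held 152.80 of the 179 in B on day 1 and 131.00 of the 186 in BC on day 3. Lum was at 0 in all 8 libraries and Thy1, Cspg4 and Rgs5 stayed at or below 0.08 FPKM. Of the Mueller glia and astrocyte markers, Clu rose and Dkk3 fell among 5 tested, with Gfap and Rlbp1 at or below 0.06 FPKM. One gene each was tested among the photoreceptor (summed FPKM 2.23 to 4.89 in B and 2.07 to 6.99 in BC), endothelial (1.59 to 3.76 and 1.24 to 3.27), microglial (2.2 to 81.8 and 3.08 to 62.2) and pigment epithelial markers (10.3 to 37.1 and 6.06 to 34.2), of which Rdh5 of the pigment epithelium fell. The microglial sum went from 37.0 in B to 12.3 in BC on day 3, from 36.5 to 22.9 on day 5 and from 81.8 to 62.2 on day 7, and from 2.2 to 3.08 on day 1. The pigment epithelial sum was lower in BC on each day, with 25.6 and 13.8 on day 3 and 30.2 and 16.6 on day 5. Among the neuronal markers 4 were tested and none passed, and of 2 lens markers Cryab, a small heat shock protein, fell by 0.84 (adjusted p = 0.0123). The lens sum was also lower in BC on each day, with 786 and 343 on day 3 and 1864 and 804 on day 5. In all 8 libraries, 8 of 10 microglial, 9 of 11 pigment epithelial and 9 of 12 measured lens markers stayed under 1 FPKM. These sums therefore rest on few genes. The part of other cell types in these results was not tested, and fewer cells of a type cannot be told apart from less RNA per cell.

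The size of the difference between BC and B changed with the day, and it was largest on day 3. A gene was counted when it differed by at least 1 on the log2(FPKM + 1) scale, that is, 2 times, between 2 single libraries. On day 1 there were 4 genes higher (0.0365%) and 13 lower (0.119%), on day 3 121 higher (1.1%) and 102 lower (0.931%), on day 5 44 (0.402%) and 21 (0.192%), and on day 7 29 (0.265%) and 23 (0.21%). The SD of the difference over the 10955 genes was 0.19, 0.38, 0.29 and 0.29 on the 4 days. Without bFGF, the C and BM libraries showed no such peak, with 34, 36, 42 and 38 genes on days 1, 3, 5 and 7. These counts are over the same 10955 genes, which were filtered by their FPKM in B and BC. Genes expressed mainly without bFGF are thus left out of them. The median gene differed by 0.01 between BC and B on day 3, and by 0.02, 0.02 and -0.06 on days 1, 5 and 7. After subtracting these medians the counts were 18, 225, 66 and 58. The genes nearest the limit on day 3 were Cyp7b1 at 1.002 and Zfand2a at -1.004 within it, and Gadd45b at -0.998 outside it.

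**Figure D3:**
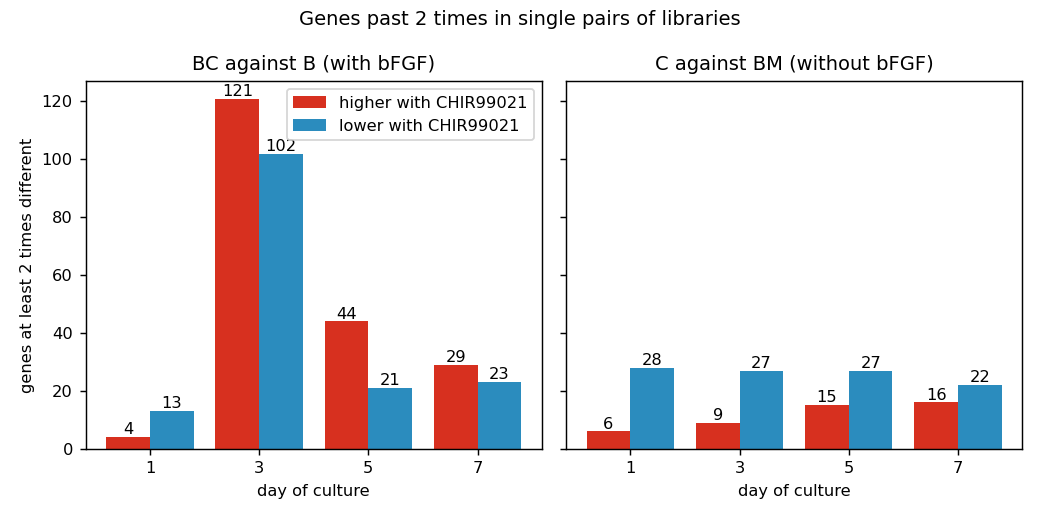
Number of the 10955 genes at least 2 times higher or lower with CHIR99021 in single pairs of libraries, by day, with bFGF (left) and without (right). BC against B peaked on day 3 with 121 and 102 genes, whereas C against BM had 9 and 27 on that day.

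Most genes that differed on day 3 differed in the same direction, and less, on days 5 and 7. Of the 121 genes higher on day 3, 113 were also above 0 on day 5 and 107 on day 7, where 53.6% and 41.5% of all genes were. On day 1, 83 of them were above 0, beside 54.2% of all genes. The median difference of the 121 was 0.09, 1.26, 0.64 and 0.40 on days 1, 3, 5 and 7. Of the 102 genes lower on day 3, 88, 85 and 90 were below 0 on days 1, 5 and 7. Of all genes, 45.4%, 45.9% and 58.1% were below 0 on these days. The medians of the 102 were -0.41, -1.25, -0.41 and -0.42 on days 1, 3, 5 and 7. A gene picked for a large value on 1 day tends to be less extreme on others, so the same count was made from the other days. The 44 genes higher on day 5 had a median of 1.23 on that day and of 1.16 on day 3, and 24 of them were past 2 times on day 3. The 29 genes higher on day 7 had a median of 1.17 on that day and 0.98 on day 3. The genes lower on these days were less extreme on day 3, with a median of -1.18 on day 5 and -0.77 on day 3 over 21 genes, of which 7 were past 2 times on day 3, and of -1.11 on day 7 and -0.96 on day 3 over 23. The few genes of day 1 did not keep their sign in the median, with -0.13 on day 3 over the 4 higher and 0.17 over the 13 lower. Of the genes of day 3, 24 and 14 of the 121 higher were past 2 times on days 5 and 7, and 7 and 11 of the 102 lower. Across the genes tested, which are not independent, the day 3 difference had a Pearson correlation of 0.30 with day 1, 0.55 with day 5 and 0.44 with day 7. Of the 549 called genes, 321 (58.5%) had their largest difference on day 3, as had 37.5% of all genes tested.
The largest day 3 differences, outside the rule for named genes and taken after their values were seen, were in Ass1, Postn, Serpina3n and Olfml3. Ass1, the enzyme that makes argininosuccinate for arginine synthesis, had 4.92, 23.48, 27.58 and 23.26 FPKM in B and 6.40, 177.2, 67.14 and 40.19 in BC. It was higher in BC on each day and peaked in BC on day 3. Olfml3, a secreted protein, had 11.06, 22.35, 19.62 and 14.48 in B and 11.64, 120.7, 56.03 and 31.92 in BC, with the same peak. The acute-phase protease inhibitor gene Serpina3n had 0.68, 6.22, 15.71 and 9.43 in B and 0.52, 42.68, 56.68 and 26.40 in BC, and was higher in BC from day 3 but not on day 1.

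The genes that were higher in BC on day 3 were, in the median, also high on day 3 in the other treatments. In the 121 genes, the day 3 library exceeded the mean of days 1 and 5 of its own treatment by a median of 0.51 in B, 1.45 in BC, 0.57 in BM and 0.69 in C, against 0.13, 0.12, 0.00345 and -0.00278 over all genes. The 102 lower genes had medians of 0.47 in B and -0.41 in BC, and of -0.23 in BM and -0.14 in C. Both sets were picked on the day 3 libraries of B and BC. The choice itself therefore favours values of B and BC that lie apart on that day, and only BM and C took no part in it.
In all, 66 genes stood apart on day 3, past 2 times on that day and within 0.5 on the other 3. Of them, 31 were higher in BC. Mab21l1, a gene of eye development, had an FPKM of 5.65, 7.30, 4.42 and 2.88 in B and of 8.20, 37.17, 5.02 and 2.85 in BC. Only the day 3 library of BC was high. Selenbp1, a selenium-binding protein, went from 18.70 in B to 50.38 in BC on day 3 and was at 12.35 and 16.96 on day 5. Emilin1, Adh7, Scara5, Ephb6, Emb and Hexdc completed the 8 largest rises, with paired differences on day 3 between 1.24 and 1.84.
The other 35 were lower, with Egr1 first. Egr1, an early response transcription factor induced by ERK, had 20.15, 29.54, 4.12 and 29.22 FPKM in B and 17.46, 4.87, 5.43 and 22.73 in BC. The B library was low on day 5 and the BC library on days 3 and 5, so the values of the treatments overlapped. The ERK phosphatase gene Dusp4 had 59.69, 153.30, 112.70 and 105.90 in B and 45.02, 59.12, 91.61 and 79.53 in BC. The mitochondrial iron carrier gene Slc25a37 went from 171.20 in B to 65.68 in BC on day 3, and from 196.50 to 192.20 on day 7. Il34, a ligand of the CSF1 receptor, went from 29.92 to 10.87 on day 3 and from 23.94 to 22.84 on day 7. Sprr2e, Rnd1, Ly6g and Pet117 were the other 4 of the 8 largest falls.
By list, the median difference over 18 ERK targets was -0.11, -0.61, 0.01 and -0.09 on days 1, 3, 5 and 7, and between C and BM, without bFGF, it was -0.47, -0.41, -0.33 and -0.39. Lower ERK targets were thus also seen without bFGF, there on all 4 days. Over 13 early response genes the median was -0.32, -0.71, -0.12 and -0.21 with bFGF and -0.30, -0.12, -0.17 and -0.21 without. The 22 G2/M genes had 0.10, -0.41, -0.49 and -0.27 with bFGF and 0.15, -0.05, -0.46 and -0.18 without. The chemokines and cytokines, over 11 genes, had -0.34, -0.69, 0.28 and 0.10, so they were lower on day 1 as well. The 5 fibroblast and pericyte markers had -0.18, 0.75, 0.44 and 0.14.

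**Figure D4:**
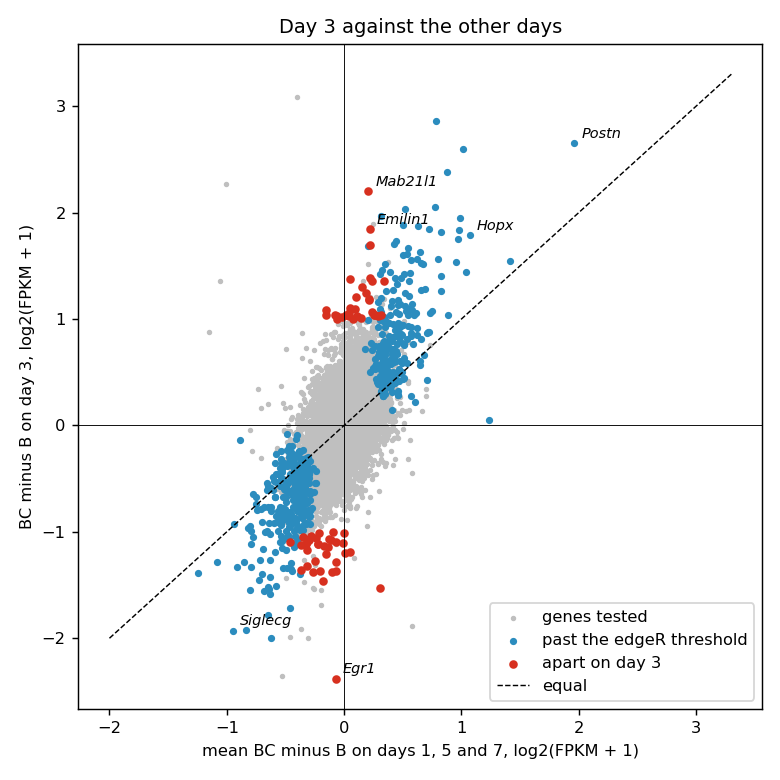
Each point is 1 of 10955 genes, with the mean difference between BC and B on days 1, 5 and 7 on the x axis and the difference on day 3 on the y axis, both in log2(FPKM + 1). Genes past the edgeR threshold lie mostly steeper than the dashed line of equal differences, and the 66 genes apart on day 3, which include a few past the threshold, lie near 0 on the x axis.

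Genes that differed with bFGF had, in the median, a difference between BC and B of the opposite sign on days 3 and 5. They were chosen as at least 2 times different between B and BM on other days than the one examined, so the choice used neither library of the pair. On day 3 the 693 genes higher with bFGF had a median difference between BC and B of -0.31 (quartiles -0.61 and -0.00276), and 75.2% were below 0, against 47.8% of all genes. The 2260 genes lower with bFGF had a median of 0.26 (quartiles 0.07 and 0.46), with 82.9% above 0, against 52.0% of all genes. On day 1 the same genes had medians of 0.03 and 0.01. B and BM themselves differed little over these genes on day 1, with medians of 0.11 and -0.17. Day 1 therefore says little about an opposite sign. On day 5 the medians were -0.28 over 503 genes and 0.22 over 555, and on day 7 -0.14 over 474 and 0.02 over 563, where all genes were at -0.06. Between C and BM the medians of the higher and the lower genes were -0.02 and 0.01 on day 3, -0.16 and -0.02 on day 5 and -0.12 and 0.02 on day 7, so on days 5 and 7 the genes higher with bFGF were below 0 in the median without bFGF too. The bFGF difference itself on day 3, over the 693 genes, had a median of 1.25 for B against BM and 0.95 for BC against C, and over the 2260 genes of -0.66 and -0.43. On day 7 these were 1.85 and 1.82 over the 474 genes. A difference between the day 3 cultures other than CHIR99021 cannot be told apart from the treatment, with 1 library of each.

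**Figure D5:**
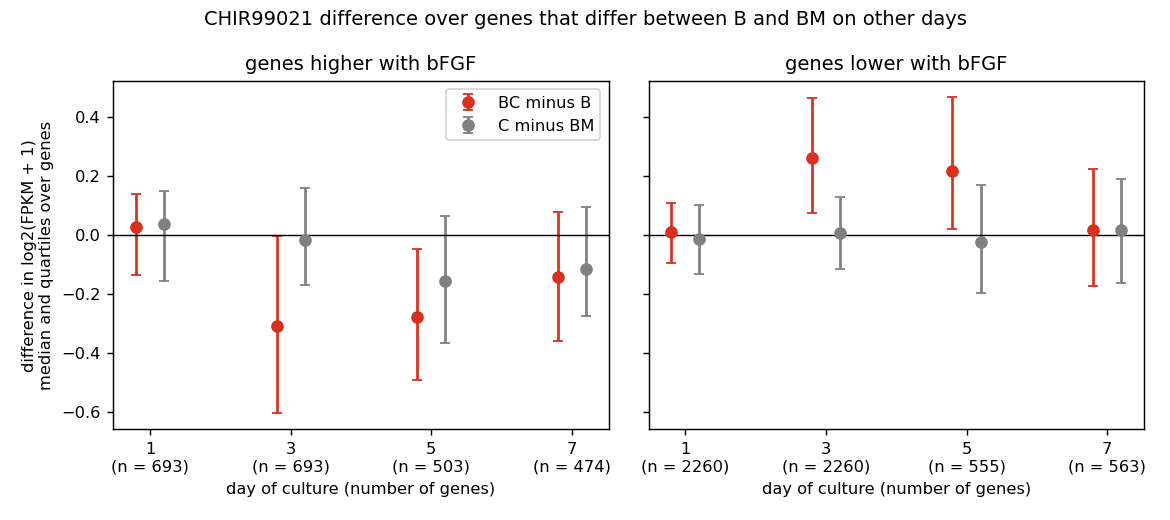
Median and quartiles over genes of the difference between BC and B (red) and between C and BM (grey), in log2(FPKM + 1), by day, for genes higher (left) or lower (right) in B than in BM on other days. The red medians lie at -0.31 and 0.26 on day 3 and near 0 on day 1. On day 1, B and BM themselves differed little over these genes (medians 0.11 and -0.17).

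The CHIR99021 difference was compared with that without bFGF, in libraries that the pairs of B and BC do not share. In the fit of C against BM, 1087 genes rose (9.59%) and 1205 fell (10.6%). Of the 250 genes that rose with bFGF, 196 of the 248 in that fit had the same direction and 107 were called in it, while 17 were called in the opposite direction. Of the 299 that fell, 267 of 279 had the same direction, 181 were called in it and 1 was called in the opposite direction. The counts of calls are not comparable in size, since the day-to-day spread in the C and BM pairs was its own.
The difference itself was tested as an interaction over 16 libraries. It passed in 63 genes with a more positive CHIR99021 effect in the presence of bFGF (0.559% of 11272) and in 15 with a more negative one (0.133%). Postn led with 4.19 on the log2 scale (SE 0.30, adjusted p = 6.67e-05, edgeR). It was the one gene left past the threshold without day 5 and without day 7, and Postn, Enpep and Fbln7 were left without day 3, whereas 588 genes passed without day 1. In C against BM, Postn was at -0.07 and Cyp26a1 fell by 0.79 (adjusted p = 0.00856). Dlg2 was at 0.02 without bFGF, with an interaction of 0.94 (adjusted p = 0.0198). Jph2 fell both with and without bFGF, by 1.42 and 0.64, and the interaction of -0.77 passed (adjusted p = 0.0392). Dusp6 did not pass with bFGF and fell by 0.94 without it, with an interaction of 0.89 (adjusted p = 0.029). For Axin2 the effect was 0.80 with bFGF and 1.31 without, and the interaction of -0.51 did not pass (adjusted p = 0.103). For Myc the effects were -0.68 and -0.81 (interaction 0.12, adjusted p = 0.848), and for Hopx 1.61 and 1.25 (interaction 0.37, adjusted p = 0.569).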

How the data were processed

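RNA of the cells was poly-A selected and sequenced on the BGISEQ-500 platform. The authors deposited, per library, an expected count and an FPKM value per gene. Their paper gives Bowtie 2 and eXpress, and the submitters' processing notes name Bowtie2, RSEM and mm10, without versions, so which program split shared reads is not settled. The lowest FPKM listed is 0.01, and genes absent from a file were set to 0. Between 63.9% and 65.5% of the deposited expected counts were whole numbers. After rounding, edgeR 4.0.16 (R 4.3.3) was run on them (TMM, glmQLFit and glmQLFTest, day and CHIR99021 as terms, mean FPKM of at least 1, Benjamini-Hochberg adjusted p under 0.05), with 3 residual degrees of freedom and a coefficient of variation of 11%. The interaction was fitted over 16 libraries with 6 residual degrees of freedom. Paired differences used log2(FPKM + 1), which understates changes of low genes. DESeq2 1.42.0 and limma 3.58.1 were alternatives. Data were simulated for BC against B over 10955 genes, with 200 genes given a change that did not vary over the 4 days. Every gene had a coefficient of variation of 15%. Of the changed genes at a log2 fold change of 1, 98.9% were recovered, and for the interaction over 11272 genes 76.8%. In the real libraries the differences varied with the day, so these shares do not give the power of the tests there. FPKM differs in depth by gene length, and lower counts mean less precise values.

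The lists and comparisons were chosen with earlier results of these data known. Genes were named if among the 12 largest called changes in each direction of the same sign in 4 of 4 pairs, the 10 steadiest or the 8 largest apart on day 3, if 1 of 10 Wnt genes (Axin2, Nkd1, Lef1, Tcf7, Sp5, Notum, Znrf3, Rnf43, Myc, Ccnd1) or if among the 4 largest mean paired differences of a list. Other genes named were chosen after their values were seen. Antisense or overlapping genes and near-identical copies may share reads. Of the genes tested, 8849 (80.8%) matched a RefSeq promoter by Entrez identifier.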

Additional observations from a re-analysis of the deposited data

Results flagged for a closer look

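The paired differences between BC and B over the 4 days were examined for a day far from the other 3 in 67 results, named genes and list medians, and 5 were found. Chance alone gives about 1 in 20. Postn was at 0.0272 on day 1, far below its other days. Serpinb9b was at -0.466 on day 5, where it was least lowered. Orm3 reached 1.87 on day 3 and Fam71f1 -1.52 on day 3. The median of the CDK inhibitors and p53 targets was -0.00609 on day 1, above the other days.

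The effect of CHIR99021 differed between cells with and without bFGF in 13 of 39 named genes by the interaction test of edgeR (adjusted p under 0.05 over 11272 genes). The effect with bFGF minus that without, on the log2 scale, was 4.19 for Postn, 2.41 for Cyp26a1, 2.38 for Islr, 2.31 for Sema6d, 2.25 for Enpep, 1.97 for Sparcl1, 1.95 for Wisp2, 1.81 for Serpina3i, 1.72 for Nrep, 1.47 for Saa3 and 0.939 for Dlg2. It was -0.771 for Jph2 and -2.2 for Plekhb1. These genes were named for a large or steady change with bFGF, so that a difference from the cells without bFGF is favoured by the choice.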

How the results depend on the processing

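The count of genes that differed between BC and B was 549, and 523 with RLE size factors, 544 and 556 with limma and a pseudocount of 1 and 0.1, and 406 over genes of mean FPKM 5 or more. It was 834 with DESeq2, 1149 with no filter, 1906 with 16 libraries in the fit and 8 to 939 with 1 pair left out. With the day term, which blocks the pairs, left out, it was 0 by edgeR (87 genes at an unadjusted p under 0.05). The labels pair the libraries by day only. All 549 genes kept their sign in each of these fits in which they were tested. They were called on the same libraries, so this is no separate check of their direction. The interaction count of 78 (1571 at an unadjusted p under 0.05) was 242 with DESeq2, 1 with limma on log2(FPKM + 1), 45 over genes of mean FPKM 5 or more and 1 to 588 with 1 day left out. The 21 steady genes (5 higher, 16 lower) became 49 with a pseudocount of 0.1 (14 and 35), 59 on TMM-scaled counts (27 and 32) and 15 over genes of mean FPKM 5 or more (1 and 14). The 223 genes at least 2 times different on day 3 became 383, 404 and, over genes of mean FPKM 5 or more, 144, and day 3 had the most such genes in each of these settings. The causes were not tested. Low genes are limited by depth, and with 1 library per treatment and day no single-day difference has an error.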

Other observations

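Some single values stood out outside the comparisons. The histone gene Hist2h2aa2 was listed at 1.30 FPKM in B on day 1 and at 7.50 in BC on day 3 and at 0 in the other 6 of these libraries. Histone genes have near-identical copies between which reads may be split, so this value is uncertain. The natriuretic peptide gene Nppb had an FPKM of 24.70, 36.68, 16.68 and 74.53 in B and of 12.22, 6.36, 10.67 and 73.06 in BC, with paired differences from -2.36 on day 3 to -0.03 on day 7, and did not pass the test (log2 fold change -0.96, adjusted p = 0.0848 by edgeR). The iron-handling gene Lcn2, which encodes lipocalin 2, had 3.43, 94.49, 40.51 and 20.56 in B and 3.06, 277.20, 220.20 and 82.22 in BC. It was a little lower in BC on day 1 and higher from day 3 (log2 fold change 1.76, adjusted p = 0.00836).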
